A study of Mus musculus with 9 samples.

Results

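The genes described here write, maintain and remove DNA methylation. The writers are the methyltransferase genes Dnmt1, Dnmt3a and Dnmt3b, the cofactor gene Dnmt3l and Uhrf1, whose protein guides Dnmt1. The erasers are the oxidase genes Tet1, Tet2 and Tet3. They were followed through every probe set (a group of short array oligonucleotides that together report 1 transcript) annotated to exactly 1 of these 8 symbols, which gave 20 of the 45037 probe sets that were not controls (8 of 18193 genes with such a probe set). RNA came from laser-captured mouse cells, which the labels call NCCs, of the E8.5 embryo at the time of neural tube closure, the E13.5 dorsal root ganglion and the P90 adrenal medulla, an adult stage at 3 months after birth. Each stage had 3 arrays, labelled as biological replicates, hybridised with cRNA made from 400 ng of total RNA. The study set out to follow DNA repair genes through development. The labels give no strain, sex, treatment or number of animals per capture, and p-values therefore measure the spread between these arrays. Every stage was also taken from another tissue, so stage and tissue cannot be told apart, and in captured tissue fewer cells of a type and less RNA per cell cannot be told apart either.

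Methyl groups on the cytosine of CpG dinucleotides are copied to the new DNA strand after replication. Uhrf1 recognises the half-methylated sites that replication leaves and brings in Dnmt1, the maintenance methyltransferase. Dnmt3a and Dnmt3b place methyl groups on unmethylated sites, and Dnmt3l, itself inactive, stimulates them in germ cells and early embryos. Tet1, Tet2 and Tet3 oxidise methylcytosine, which opens the way to its removal by dilution through replication or by base excision repair. In the mouse, de novo methylation is heavy around implantation, Dnmt3b is the leading enzyme of the early embryo, and Dnmt3a prevails later and in neurons.

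The promoters of Uhrf1, Dnmt1 and Dnmt3b are printed here because these are the 3 genes of which every probe set was lower at both later stages than at E8.5. RefSeq windows of 300 bases (250 before and 50 after a start site, build GRCm38.p6) were available for all 8 genes, 15 windows in all, and were searched on both strands for 4 words bound by E2F factors, the regulators of S phase genes: TTTCCCGC, TTTCGCGC, TTTGCCGC and TTTGGCGC. The words do not overlap one another in the windows shown, and capitals mark each match, with GCGCGAAA being TTTCGCGC read on the other strand.
Uhrf1, chr17:56304063-56304362, plus strand: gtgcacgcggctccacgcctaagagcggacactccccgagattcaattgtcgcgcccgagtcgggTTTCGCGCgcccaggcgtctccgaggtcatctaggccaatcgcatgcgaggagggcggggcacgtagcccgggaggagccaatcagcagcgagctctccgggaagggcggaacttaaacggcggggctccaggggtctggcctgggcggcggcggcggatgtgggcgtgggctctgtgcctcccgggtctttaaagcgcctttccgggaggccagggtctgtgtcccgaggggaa
Dnmt1, chr9:20952574-20952873, minus strand: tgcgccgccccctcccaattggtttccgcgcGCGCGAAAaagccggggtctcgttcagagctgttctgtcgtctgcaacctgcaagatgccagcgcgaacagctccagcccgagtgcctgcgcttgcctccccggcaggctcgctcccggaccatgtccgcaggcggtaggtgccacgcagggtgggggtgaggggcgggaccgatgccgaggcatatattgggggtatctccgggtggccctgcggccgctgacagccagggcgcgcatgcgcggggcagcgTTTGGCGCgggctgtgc
Dnmt3b, chr2:153649199-153649498, plus strand: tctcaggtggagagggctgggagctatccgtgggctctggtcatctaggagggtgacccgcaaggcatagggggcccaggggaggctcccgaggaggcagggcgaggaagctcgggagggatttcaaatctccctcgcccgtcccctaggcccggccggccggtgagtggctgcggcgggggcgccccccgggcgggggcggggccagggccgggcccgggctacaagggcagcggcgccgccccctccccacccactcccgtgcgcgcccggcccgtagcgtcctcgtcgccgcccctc
The Uhrf1 window held TTTCGCGC 185 bases before the start, and the Dnmt1 window held TTTCGCGC 219 bases before and TTTGGCGC 33 bases after it. These distances are from the start site of the printed window. The other start sites of Uhrf1 and Dnmt1 lie upstream of the printed windows, so the words lie downstream of those. No match lay in the Dnmt3b window or in the other 12 windows of the 8 genes. A word occurred in 2 of these 15 windows, and in 744 of 32851 windows of all genes (2.26%). Counted by gene, it occurred in 2 of the 8 genes, in 704 of 27025 genes with a window (2.6%), and in 7 of 17 genes of the S phase and mitosis list. The printed window is 1 of 2 for Uhrf1, 1 of 3 for Dnmt1 and the 1 for Dnmt3b, and for Uhrf1 and Dnmt1 it was chosen because it held a word. The printed windows of Uhrf1, Dnmt1 and Dnmt3b held 33, 33 and 30 CpG dinucleotides, against a median of 7 over all windows. The other Uhrf1 window held 12 and the other Dnmt1 windows 12 and 2, while the Tet2 window held 57 and the 3 Dnmt3a windows 46, 47 and 18. All 4 words contain a CpG, and the shares over all windows and all genes were not matched for CpG count. A match is a string of letters, and binding was not measured.

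Values are the deposited signals on a linear scale, and changes are differences of log2(signal + 16), which understates changes of dim probe sets. A probe set was tested where it exceeded a signal of 26.1 on at least 3 of the 9 arrays and had at least 2 values at each stage. Of the 20 probe sets, 18 passed, covering 7 genes. The only Dnmt3l probe set and 1 of 4 Tet1 probe sets exceeded that signal on 0 of 9 arrays and were not tested. Differences were tested with limma over all 24013 probe sets that passed, with Benjamini-Hochberg adjustment, and a change was called at an adjusted p under 0.05. The 3 comparisons share their arrays in pairs and are not independent of one another.

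At E13.5 against E8.5, 3 of 18 probe sets were called higher and 8 lower (11 in all, where 15% of all tested probe sets were called, 7.99% higher and 6.98% lower). Those that rose all belonged to Dnmt3a, and those that fell to Dnmt1, Dnmt3b, Uhrf1 and a further Dnmt3a probe set. The dimmer Uhrf1 probe set, counted among the falls here and at P90 against E8.5, passed the filter through E8.5 and 1 E13.5 array. At P90 against E13.5, 1 of 18 was called, a fall of Uhrf1, against 7.48% of all tested probe sets (2.88% higher and 4.6% lower). At P90 against E8.5, 1 was called higher and 8 lower, where 20.8% of all were called (9.57% higher and 11.2% lower). A limma F-test over the 3 stages called 11 of 18, against 23.3% of all. The median log2 change over the 18 was -0.27 at E13.5 against E8.5, -0.61 at P90 against E13.5 and -1.30 at P90 against E8.5, with medians over all tested probe sets between -0.02 and 0.00. Counted by gene, through the brightest probe set, 1 of 7 rose and 3 fell at E13.5 against E8.5, where 9.01% of genes rose and 6.95% fell. The same counts held at P90 against E8.5, where 10.5% of genes rose and 12% fell, and at P90 against E13.5 1 of 7 fell, where 5.59% did and 3.3% rose. By gene, the median log2 change was 0.01 at E13.5 against E8.5, -0.98 at P90 against E13.5 and -1.05 at P90 against E8.5. Over all genes these medians were 0.02, -0.05 and 0.01. By array values alone, 4 of 18 probe sets were higher on all P90 arrays than on all E8.5 arrays and 8 were lower (19.8% and 23.2% of all tested probe sets). At E13.5 against E8.5, 3 were higher and 8 lower in this way (17.2% of all in each direction), and P90 against E13.5 had 0 and 6 (10% and 12.5%).

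**Figure D1:**
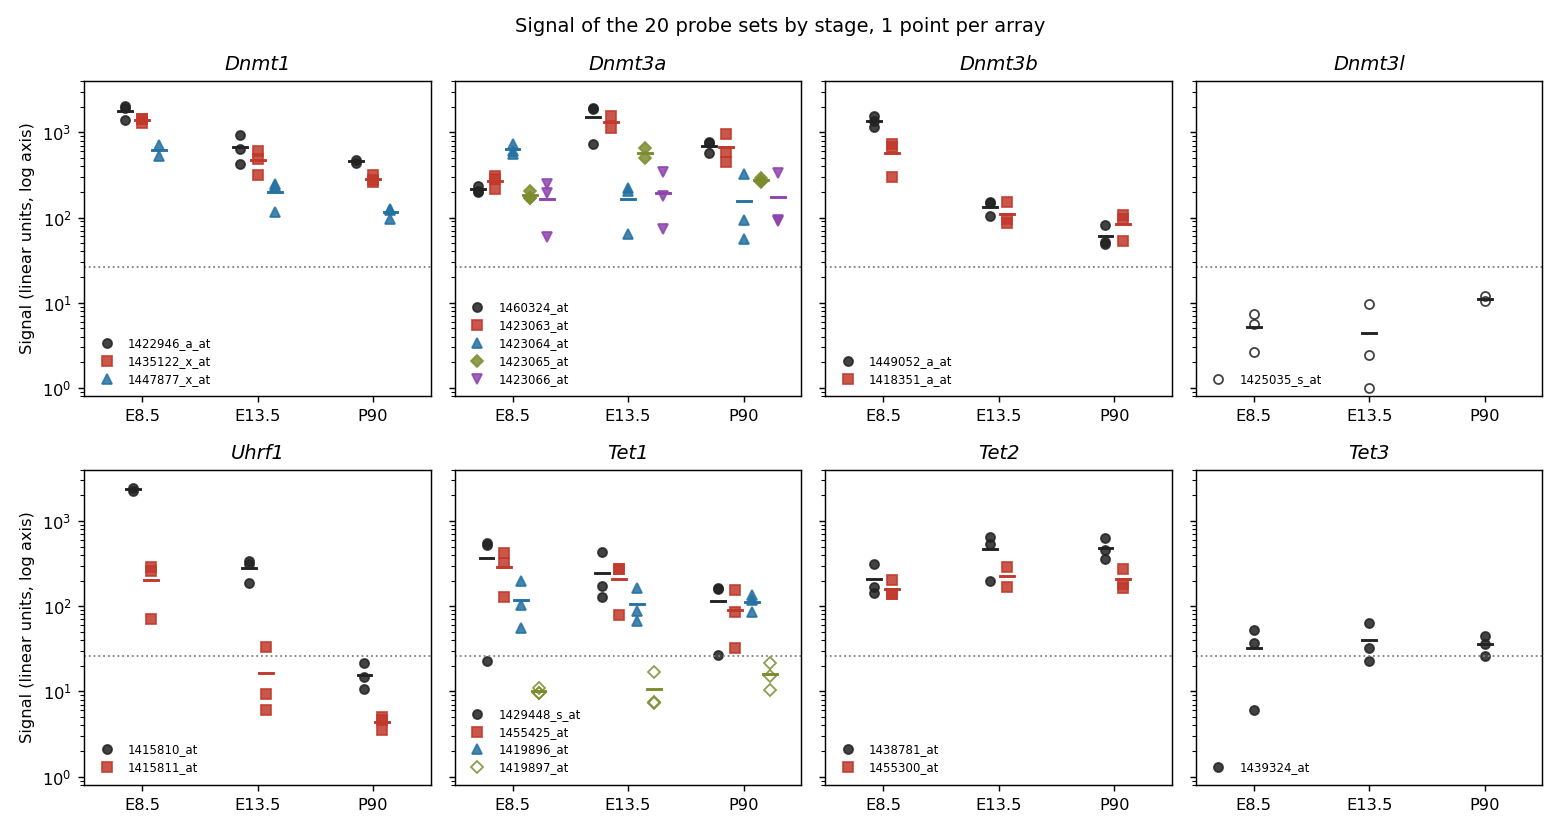
Signal (log axis, linear units) of every probe set of the 8 genes on each array, with E8.5, E13.5 and P90 from left to right, a bar at each mean and a dotted line at a signal of 26.1; open symbols were not tested. Uhrf1, Dnmt1 and Dnmt3b sit highest at E8.5, the means of 4 of 5 Dnmt3a probe sets are highest at E13.5 (1423066_at with overlapping stages), and the Tet genes overlap between stages in most panels.

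Of the 8 genes, Uhrf1 had the largest log2 change. Its brighter probe set, 1415810_at, read 2427 and 2276 on the E8.5 arrays with a value (replicate 1 was empty), 341, 187 and 309 on the E13.5 arrays, and 21.6, 14.9 and 10.8 on the P90 arrays. The 3 stages did not overlap, and no P90 array exceeded the signal of 26.1. The log2 change was -3.05 ± 0.39 (SE) at E13.5 against E8.5 (adjusted p = 0.000808), -3.19 ± 0.35 at P90 against E13.5 (adjusted p = 0.00059) and -6.23 ± 0.39 at P90 against E8.5 (adjusted p = 1.04e-05). Uhrf1 was thus the 1 gene of the 8 with a called change between the later stages. The dimmer probe set, 1415811_at, read 70.8, 287 and 258 at E8.5, 33.4, 6.1 and 9.42 at E13.5 and 4.97, 3.57 and 4.64 at P90. It also fell at both later stages against E8.5, with log2 changes of -2.67 ± 0.45 at E13.5 (adjusted p = 0.00277) and -3.25 ± 0.45 at P90 (adjusted p = 0.000616). Outside E8.5 it exceeded the signal of 26.1 only on E13.5 replicate 1. It thus passed the filter through E8.5, and its calls against E8.5 could hardly be other than falls. Between P90 and E13.5 its change was -0.57 (95% interval -1.57 to 0.43, adjusted p = 0.572), at signals under 26.1 on all but 1 of those 6 arrays. Every called Uhrf1 change stayed called under the alternatives run, but sizes at such low signals moved with the pseudocount. With pseudocounts of 1 and 64, the P90 change against E13.5 of 1415810_at was -4.06 and -2.08, and that against E8.5 was -7.18 and -4.92. For 1415811_at the changes against E8.5 were -3.68 and -1.64 at E13.5 and -5.03 and -1.86 at P90.

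Dnmt1, the maintenance enzyme, was read by 3 probe sets, and all 3 fell at both later stages against E8.5. Probe set 1435122_x_at, the one with no empty value, read 1443, 1294 and 1417 at E8.5, 318, 486 and 605 at E13.5, and 260.4, 314 and 277 at P90. All E13.5 and P90 arrays lay below all E8.5 arrays, and all P90 arrays lay below all E13.5 arrays. Its log2 change was -1.57 ± 0.35 at E13.5 against E8.5 (adjusted p = 0.0126) and -2.23 ± 0.35 at P90 against E8.5 (adjusted p = 0.00137). The P90 value against E13.5 was -0.65 (95% interval -1.43 to 0.12, adjusted p = 0.36), which did not pass the test. The brightest probe set, 1422946_a_at, read 1410.4, 1937 and 2039 at E8.5, 644, 429 and 942 at E13.5, and 438 and 472 on the 2 P90 arrays with a value. Its changes against E8.5 were -1.45 ± 0.40 at E13.5 (adjusted p = 0.0352) and -1.93 ± 0.44 at P90 (adjusted p = 0.0125). Probe set 1447877_x_at read 713 and 528 on 2 arrays at E8.5, 115, 248 and 237 at E13.5, and 95.8, 123 and 125 at P90, with changes against E8.5 of -1.61 ± 0.42 at E13.5 (adjusted p = 0.0294) and -2.28 ± 0.42 at P90 (adjusted p = 0.00421).

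Dnmt1 kept its direction without any 1 array, but its call at E13.5 depended on single arrays. For 1435122_x_at the adjusted p was 0.0517 without E8.5 replicate 2 and 0.0566 without E8.5 replicate 3. For 1422946_a_at it exceeded the threshold without any 1 of the 3 E8.5 arrays, without either of E13.5 replicates 1 and 2, and without P90 replicate 2, with values of 0.0562 to 0.137, and with the replicate number as a block (0.0744). For 1447877_x_at the same was seen on leaving out 1 of E8.5 replicates 1 and 2, 1 of E13.5 replicates 1 and 3, or P90 replicate 2, with values of 0.0528 to 0.139, and with only the 2 stages compared (0.062). At P90 against E8.5, 1435122_x_at and 1447877_x_at kept their calls without any 1 array, whereas 1422946_a_at needed replicates 2 and 3 of both stages (adjusted p of 0.0525 to 0.0815 when 1 of these was left out). The Uhrf1 calls of both probe sets held without any 1 array.

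Dnmt3b, the de novo enzyme of the early embryo, was far lower at both later stages. Probe set 1449052_a_at read 1164, 1364 and 1561 at E8.5, 104, 146 and 153 at E13.5, and 51.5, 81 and 48.5 at P90. The stages did not overlap, and E8.5 stood apart from the others. The log2 change was -3.20 ± 0.33 at E13.5 against E8.5 (adjusted p = 0.000197), a fold of 9.21, and -4.19 ± 0.33 at P90 against E8.5 (adjusted p = 1.75e-05), a fold of 18.3. Every P90 array was below every E13.5 array, but the change of -0.99 (95% interval -1.72 to -0.26) did not pass after adjustment (adjusted p = 0.113). The dimmer probe set, 1418351_a_at, read 299, 737 and 666 at E8.5, 95.5, 85.7 and 153 at E13.5, and 106, 95.1 and 52.8 at P90. Against E8.5 its log2 change was -2.13 ± 0.42 at E13.5 (adjusted p = 0.0061) and -2.48 ± 0.42 at P90 (adjusted p = 0.00193), while E13.5 and P90 overlapped. The 4 calls held without any 1 array.

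Dnmt3l, the cofactor, could not be followed. Its probe set 1425035_s_at read 5.63, 7.36 and 2.64 at E8.5, 1, 9.77 and 2.45 at E13.5, and 10.4 and 12 on the 2 P90 arrays with a value. All of these lay under the signal of 26.1, and 1 is the lowest value the table holds.

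Dnmt3a, the other de novo enzyme, was read by 5 probe sets that did not agree in direction, although the annotation gives all 5 the same transcript accession. Which stretch of the transcript each reads is not given in the sources used here. The brightest, 1460324_at, read 238, 202 and 207 at E8.5, 1944, 723 and 1894 at E13.5, and 747, 776 and 576 at P90. Every E13.5 and P90 array lay above every E8.5 array, and the E13.5 arrays spread widely, with replicate 2 well under the other two. The log2 change was 2.60 ± 0.43 at E13.5 against E8.5 (adjusted p = 0.00235), a fold of 6.08, and 1.62 ± 0.43 at P90 against E8.5 (adjusted p = 0.0208). Against E13.5, the P90 change was -0.98 (95% interval -1.93 to -0.04, adjusted p = 0.233), and without E13.5 replicate 2 it was -1.45 (adjusted p = 0.0219). The P90 call against E8.5 was lost when E8.5 replicate 2 (adjusted p = 0.08), its replicate 3 (adjusted p = 0.0724) or P90 replicate 2 (adjusted p = 0.0802) was left out. The E13.5 call held without any 1 array.

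Another 2 Dnmt3a probe sets rose with it at E13.5. Probe set 1423063_at read 216, 285 and 310.4 at E8.5, 1115 and 1553 on the 2 E13.5 arrays with a value, and 959.9, 593 and 453 at P90. The 3 stages did not overlap, and its change was 2.23 ± 0.45 at E13.5 (adjusted p = 0.00875, and 0.0721 without E13.5 replicate 3) and 1.20 ± 0.40 at P90 (adjusted p = 0.0601), both against E8.5. That P90 change passed after quantile normalization (adjusted p = 0.00848), with no variance trend (0.0362), with the Actb difference as a covariate (0.0268), with only the stages compared (0.0454) and without E13.5 replicate 2 (0.0353), on which this probe set is empty. Probe set 1423065_at read 172, 204 and 170.4 at E8.5, 493 and 660.3 on the 2 E13.5 arrays with a value, and 288, 264 and 270.4 at P90. The 3 stages did not overlap here either, and its change at E13.5 against E8.5 was 1.57 ± 0.36 (adjusted p = 0.0165). That call was lost without E8.5 replicate 2 (adjusted p = 0.0575), E8.5 replicate 3 (adjusted p = 0.0723) or E13.5 replicate 3 (adjusted p = 0.113). The P90 change against E8.5 was 0.55 (95% interval -0.17 to 1.28, adjusted p = 0.266). Between P90 and E13.5 neither passed, with -1.03 for 1423063_at (adjusted p = 0.242) and -1.02 for 1423065_at (adjusted p = 0.145), although all P90 arrays were lower in both. Both are empty on E13.5 replicate 2, on which 1460324_at read 723, within its P90 values of 576 to 776. The separation of E13.5 from P90 therefore rests on the 2 other E13.5 arrays.

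The remaining 2 Dnmt3a probe sets did not rise. Probe set 1423064_at read 726, 608 and 559.9 at E8.5, 64.9, 203 and 225 at E13.5, and 323, 92.8 and 56.5 at P90. It was highest on all 3 E8.5 arrays and fell at E13.5 (-1.99 ± 0.58, adjusted p = 0.0428) and P90 (-2.21 ± 0.58, adjusted p = 0.0205) against E8.5. Both calls depended on single arrays. That at E13.5 was lost on leaving out any 1 E8.5 array, either of E13.5 replicates 1 and 3, or P90 replicate 2 (adjusted p of 0.0609 to 0.12). It was also lost after quantile normalization (adjusted p = 0.052), with a pseudocount of 1 (0.0527), with no filter (0.0707) and with the replicate number as a block (0.0674). That at P90 was lost on leaving out any 1 E8.5 array or either of P90 replicates 2 and 3 (adjusted p of 0.0523 to 0.0882). Probe set 1423066_at read 59.6, 192 and 244 at E8.5, 339, 73.6 and 177 at E13.5, and 331, 94.5 and 91.1 at P90, so the stages overlapped, with changes of 0.19 (95% interval -1.22 to 1.61) at E13.5 and 0.00 (-1.41 to 1.42) at P90 against E8.5.

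**Figure D2:**
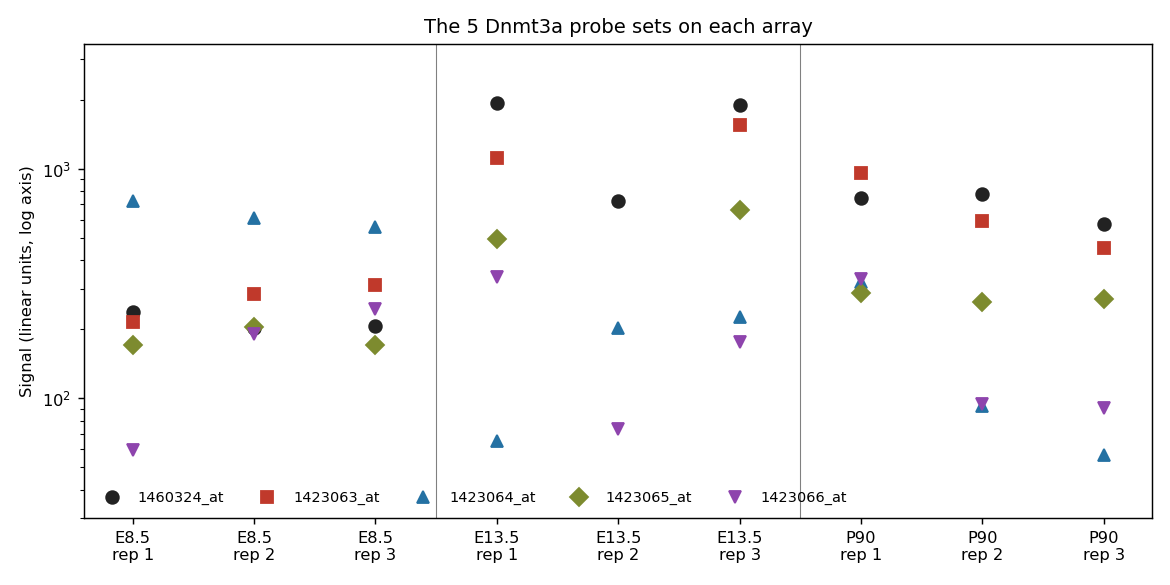
Signals (log axis, linear units) of the 5 Dnmt3a probe sets on the 9 arrays, 1 column per array; 2 values of E13.5 replicate 2 are empty. Probe set 1423064_at stands higher on the E8.5 arrays than on any other array, and 1460324_at stands lower there than on any other array.

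Tet1, an oxidase prominent in pluripotent cells, was not called in any comparison. Probe set 1429448_s_at read 22.5, 545 and 529 at E8.5, 172, 127 and 429 at E13.5, and 27, 163 and 158 at P90. E8.5 replicate 1 read far under the other two arrays of its stage, and P90 replicate 1 likewise. The log2 change at P90 against E8.5 was -1.05 (95% interval -3.17 to 1.07, adjusted p = 0.487), and without E8.5 replicate 1 it was -2.33 (adjusted p = 0.0484). Probe set 1455425_at read 127, 419 and 320.2 at E8.5, 272, 79.2 and 275 at E13.5, and 32.7, 155 and 85.7 at P90. P90 overlapped both other stages, and the change at P90 against E8.5 was -1.54 ± 0.60 (95% interval -2.87 to -0.22, adjusted p = 0.0948). Probe set 1419896_at read 55.2, 104 and 198 at E8.5, 67.6, 165 and 88.8 at E13.5, and 118, 85.6 and 135 at P90, with overlap between all stages and changes between -0.07 and 0.13. The untested 1419897_at lay between 7.36 and 21.7 on the 9 arrays.

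Tet2, an oxidase best known from blood cells, was not called in any comparison either. Probe set 1438781_at read 313, 142 and 168 at E8.5, 196, 657 and 544 at E13.5, and 457, 632 and 359 at P90. All P90 arrays were above all E8.5 arrays, and the change was 1.20 ± 0.50 (95% interval 0.10 to 2.29, adjusted p = 0.116). At E13.5 against E8.5 it was 1.02 ± 0.50 (adjusted p = 0.215), and 1.53 without E13.5 replicate 1 (adjusted p = 0.0469). Probe set 1455300_at overlapped between stages, at 139, 141 and 202 at E8.5, 166 and 289 on 2 arrays at E13.5, and 276, 165 and 185 at P90. Tet3, the oxidase of the zygote and of neurons, was dim in its 1 probe set 1439324_at, at 6.08, 53.2 and 37.2 at E8.5, 32.8, 64.1 and 22.9 at E13.5, and 26.4, 44.5 and 36.4 at P90. Its stages overlapped, its changes lay between -0.06 and 0.30, and their 95% intervals reached from -0.97 to 1.21.

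**Figure D3:**
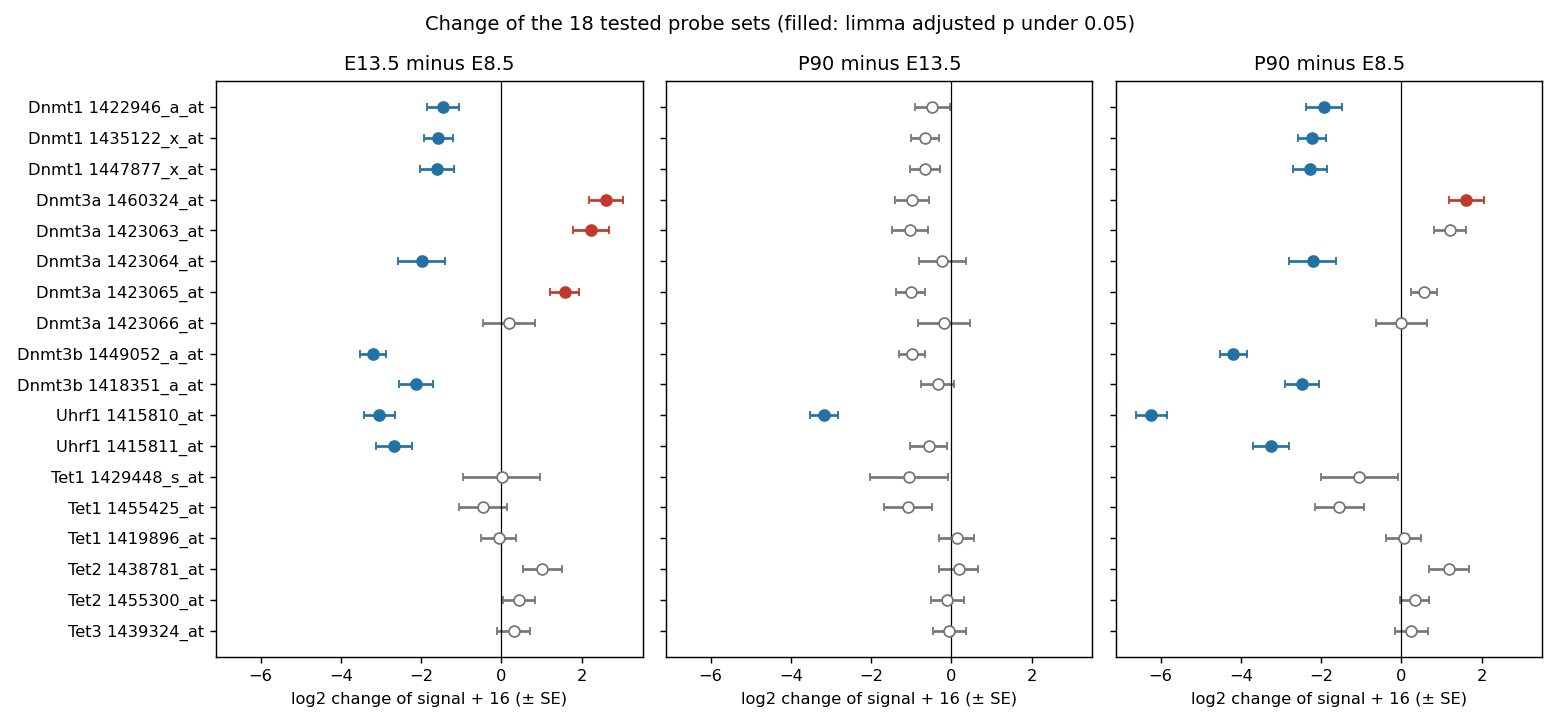
Log2 change of each tested probe set in the 3 comparisons (later minus earlier stage), with its SE from limma as the bar; filled points were called. The Uhrf1, Dnmt1 and Dnmt3b points lie left of 0 in both comparisons with E8.5, and 3 called Dnmt3a points and 1 uncalled one lie right of it at E13.5.

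The balance between pairs of these genes was compared within arrays, which leaves out any factor common to an array. Levels of different probe sets cannot be set against one another, so only the change of a difference between stages is given. The pairs were picked after the values were seen, and with 3 arrays against 3 the smallest two-sided p of the exact permutation test is 0.1 (6 tests, 0.15 after Benjamini-Hochberg adjustment). Dnmt3a (1460324_at) minus Dnmt3b (1449052_a_at) was 4.03, 2.18 and 3.50 on the log2 scale at E13.5, against -2.22, -2.66 and -2.82 at E8.5. The stages did not overlap, and the means differed by 5.81 (exact p = 0.1). On every E13.5 array Dnmt3a lay higher, and Dnmt3b lower, than on every E8.5 array. This separation and its p were therefore fixed beforehand and add no support. At P90 the difference was 3.50, 3.03 and 3.20, a mean of 3.24 ± 0.24 (SD, n = 3), against 3.24 ± 0.95 at E13.5 (exact p = 0.9).

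Dnmt3b (1449052_a_at) minus Dnmt1 (1435122_x_at) averaged -1.66 ± 0.20 at E13.5, against -0.03 ± 0.24 at E8.5 (SD, n = 3 each) and without overlap (exact p = 0.1). Uhrf1 (1415810_at) minus Dnmt1 (1435122_x_at) was -2.88, -3.41 and -3.45 at P90, against 0.09, -1.31 and -0.93 at E13.5. The means differed by -2.53, without overlap (exact p = 0.1). Uhrf1 was under a signal of 26.1 on all 3 P90 arrays, so the size of this value depends on the pseudocount, and the other Uhrf1 probe set changed by -0.57 between these stages, against -0.65 for Dnmt1. Between the Dnmt3a probe sets, 1460324_at minus 1423064_at was 4.60, 1.75 and 2.99 at E13.5, against -1.55, -1.52 and -1.37 at E8.5, a difference of 4.59 in the means (exact p = 0.1). This p too was fixed beforehand, since 1460324_at was higher and 1423064_at lower on every E13.5 array than on every E8.5 array. At P90 the difference between these probe sets was 1.17, 2.86 and 3.03, which overlapped the E13.5 values (exact p = 0.5).

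**Figure D4:**
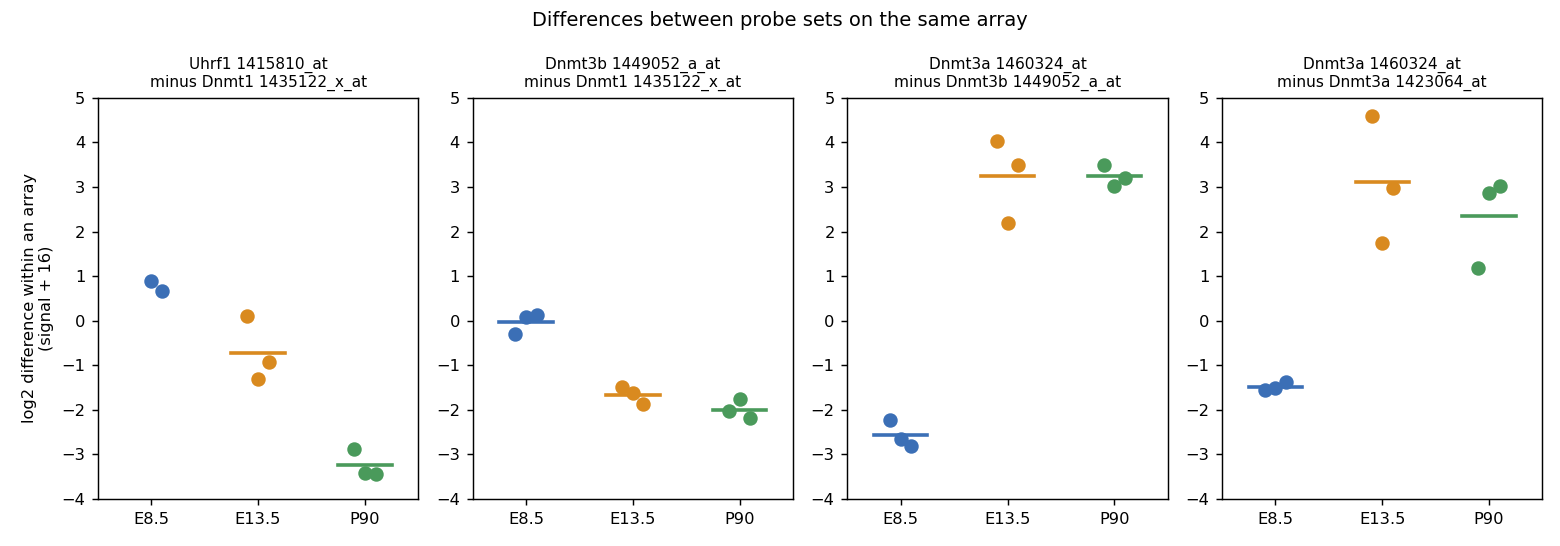
Difference of log2(signal + 16) between 2 probe sets on the same array, 1 point per array with a bar at the mean of 3, for the pairs in the text. Dnmt3a minus Dnmt3b is higher on all E13.5 and P90 arrays than on any E8.5 array, which follows from the separation of each probe set from E8.5.

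Among partners of the writers, the genes that changed all fell. Of 17 tested partners of the writers, 0 rose and 5 fell at E13.5 against E8.5 (median log2 change -0.98, against 0.02 over all 13748 genes, of which 9.01% rose and 6.95% fell). The largest falls were Pcna, the replication clamp to which Dnmt1 binds (-2.46, adjusted p = 0.0391), Cdca7, a partner of the remodeller Hells (-2.27, adjusted p = 0.00972), its paralog Cdca7l (-2.19, adjusted p = 0.00678) and the histone methyltransferase Suv39h2 (-1.66, adjusted p = 0.0165). At P90 against E8.5, 0 rose and 8 fell (median -1.47, against 0.01 over all genes, of which 10.5% rose and 12% fell), among them Pcna (-2.86), Cdca7l (-2.58), Cdca7 (-2.51) and the silencing cofactor Trim28 (-2.49). Hells, which opens chromatin for methylation, read -1.59 there (adjusted p = 0.0174) and -0.98 at E13.5 (adjusted p = 0.142). Cdca7 was below the filter at both later stages and passed it through E8.5 alone. A call of Cdca7 against E8.5 could therefore only be a fall. Suv39h2 was nearly the same, exceeding the filter outside E8.5 only on E13.5 replicate 3. Between P90 and E13.5, where 3.3% of all genes rose and 5.59% fell, limma called 0 of the 17 (3 at an unadjusted p under 0.05).

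Counts of called genes did not set readers of methylation apart from all genes, and partners of the erasers changed in both directions. Of 8 tested readers of methylated CpG, 1 rose at E13.5 and 2 at P90 against E8.5, and 0 fell. Of all genes, 9.01% and 10.5% rose and 6.95% and 12% fell in these comparisons. The called readers were Zbtb38, a methyl-CpG binding zinc finger protein (1.96, adjusted p = 0.0101 at E13.5, and 3.12, adjusted p = 0.000498 at P90), and Mbd2 (1.73, adjusted p = 0.0201 at P90). Mbd3 went the other way and was not called, at -1.37 at E13.5 (adjusted p = 0.0756) and -1.29 at P90 (adjusted p = 0.0732) against E8.5. Of 14 partners of the erasers, Cxxc4, a CpG-binding regulator of Tet2, rose at E13.5 against E8.5 (2.03, adjusted p = 0.0364). The shares of all genes called in these comparisons, given above for the partners of the writers, hold for every list. By P90, 2 had risen and 3 fallen against E8.5. Apobec1, a cytidine deaminase of RNA and DNA, rose (4.01, adjusted p = 0.00107), as did the base excision glycosylase Neil1 (1.17, adjusted p = 0.00966). The abasic endonuclease Apex1 (-2.04), the mismatch glycosylase Mbd4 (-1.84) and the mitochondrial dehydrogenase Idh2 (-1.83) fell.

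Of 6 tested genes that supply methyl groups, 3 fell at E13.5. Ahcy, which clears the product of methylation reactions, fell by 1.57 (adjusted p = 0.0282), the methionine synthase reductase Mtrr by 1.40 (adjusted p = 0.00828) and the methionine synthase Mtr by 1.21 (adjusted p = 0.0231) on the log2 scale against E8.5. Mtr (-1.21) and Mtrr (-0.91) were also called lower at P90 against E8.5. Of 5 CXXC proteins, which bind unmethylated CpG islands, Kdm2b fell at P90 against E13.5 (-1.86, adjusted p = 0.00997) and against E8.5 (-2.05). Trdmt1, a relative of the methyltransferases that acts on tRNA, fell at P90 against E8.5 (-0.86, adjusted p = 0.0373).

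Genes whose silencing or allelic use is known to rest on DNA methylation were listed beside the enzymes, and methylation itself was not measured. Of 24 annotated germline genes that methylation silences in somatic cells, 5 were tested. Of these, Tdrd9, a helicase of the piRNA pathway, rose at E13.5 against E8.5 (1.39, adjusted p = 0.00904) and fell at P90 against E13.5 (-1.71, adjusted p = 0.00503). Of 17 tested imprinted genes, 1 rose and 1 fell at E13.5 against E8.5, Meg3 (1.20) and Phlda2 (-0.83). Between P90 and E13.5, 2 rose and 3 fell, with Plagl1 (-3.31), Dlk1 (2.38), Igf2 (-2.34) and Mest (-2.01) the largest, and at P90 against E8.5 1 rose and 4 fell, led by Dlk1 (3.20) and Mest (-3.10). The P90 and E13.5 arrays of Dlk1 overlapped, at 353, 1784 and 989 at P90 and 376, 87.1 and 102 at E13.5. Phlda2 exceeded the filter outside E8.5 only on P90 replicate 1, so its calls against E8.5 could hardly be other than falls.

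Genes of S phase and mitosis fell along with Uhrf1, Dnmt1 and Dnmt3b. All 21 tested fell at P90 against E8.5 and 20 of 21 at E13.5 against E8.5, with 11 of 21 lower at P90 against E13.5, and medians of -4.61, -2.62 and -1.41. Their summed signal, over the 18 with a value on every array, was 38810 to 42593 at E8.5, 5076 to 10362 at E13.5 and 1281 to 1989 at P90. Tyms was below the filter at both later stages and passed it through E8.5 alone, so a call against E8.5 could only be a fall. Bub1, Plk1 and Cdc6 were below the filter at P90. Mki67, a marker of cycling cells, fell in each comparison, with log2 changes of -5.76 at P90 and -2.12 at E13.5 against E8.5 and of -3.64 at P90 against E13.5. The part of cell cycling in the changes of Uhrf1, Dnmt1 and Dnmt3b was not tested.

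**Figure D5:**
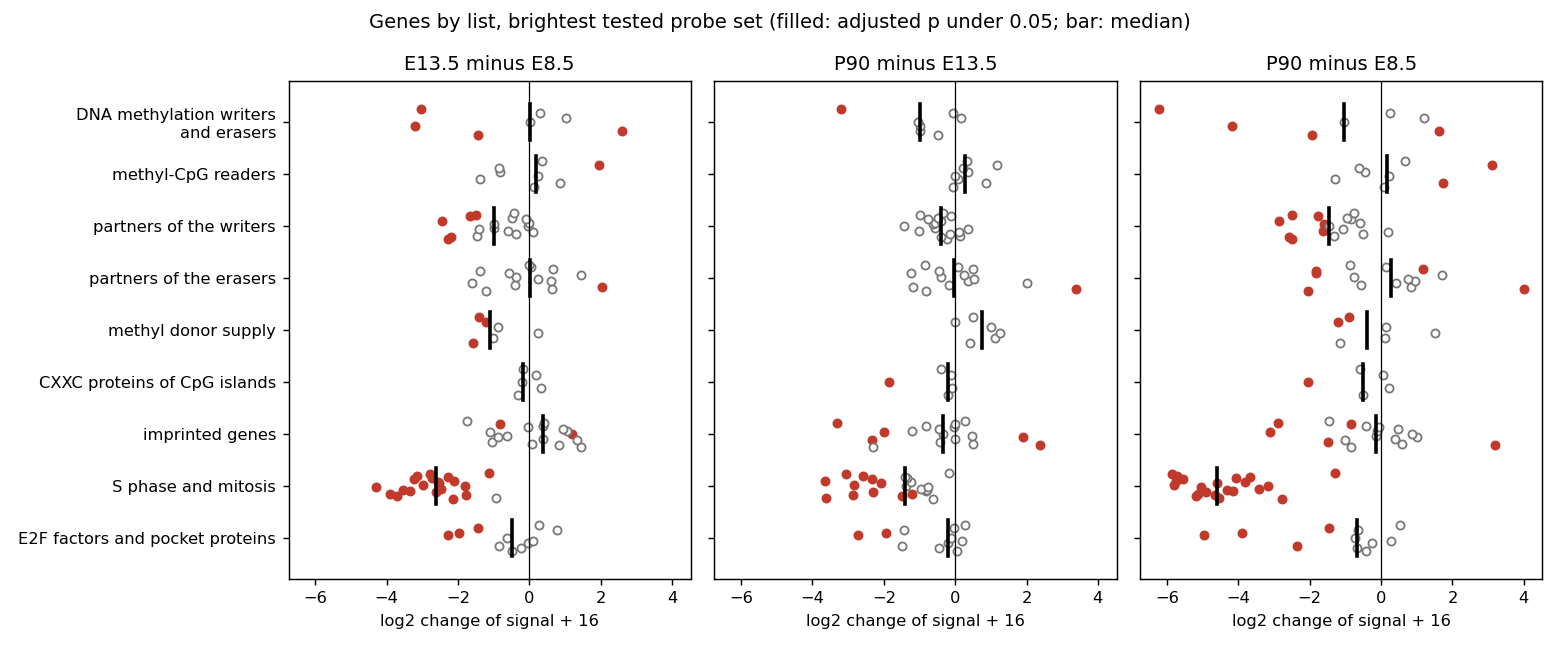
Log2 change of each tested gene of the lists in the 3 comparisons (later minus earlier stage), 1 row per list and 1 point per gene through its brightest probe set; filled points were called and the black bar is the median. All S phase and mitosis points lie left of 0 at P90 against E8.5, while readers and imprinted genes lie on both sides.

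The genes most like each of these in their course over the 9 arrays were found by the root mean square difference of centred log2 values among 11959 genes. For Dnmt3b (1449052_a_at) they were Rfc4, a loader of the replication clamp, at 0.28, the mitotic motor Kif11 at 0.30 and Igdcc3 at 0.33. For Dnmt3a (1460324_at) they were Samd10 at 0.19, the histone gene H2aw at 0.23 and Irgq at 0.24. For Tet2 they were Smad7, an inhibitor of TGF-beta signalling, at 0.32, Crispld2 at 0.33 and Zfyve27 at 0.33. For Tet3, at signals near the filter, they were Was, Ptk2b and Fam81b at 0.28 to 0.29, and for Tet1 the nearest, Lrrcc1, stood at 0.78. Dnmt1 and Uhrf1 had an empty value in their brightest probe set and were not compared in this way.

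Markers bore out the labelled tissues in part. Chromaffin markers summed to 356 to 468 at E8.5, 1608 to 3999 at E13.5 and 12339 to 24758 at P90, over 7 of 12 markers with a value on every array. Of the 12, 2 were empty on all P90 arrays, and Gata3 and Penk were below the filter at P90. Penk, unlike Gata3, exceeded the filter at E13.5. Sensory neuron markers summed to 262 to 419 at E8.5, 4474 to 6927 at E13.5 and 512 to 3213 at P90 over 5 of 11, and another 5 were empty on all 3 E13.5 arrays. Neural crest and neural tube markers summed to 2568 to 5038 at E8.5, 1294 to 1957 at E13.5 and 623 to 719 at P90 over 9 of 10, with Sox9, Wnt1, Pax6 and Sox1 below the filter at both later stages. Other cell types were also read: epithelial markers (5 of 6) summed to 958.8 to 2893 at E8.5, 163 to 356 at E13.5 and 196 to 363 at P90, and red cell markers (3 of 6) to 529 to 3601 at E8.5, 245 to 765 at E13.5 and 27.9 to 41.7 at P90. Mesenchymal markers (5 of 8) summed to 1144 to 2067 at E8.5, 3581 to 12310.1 at E13.5 and 963 to 4484 at P90. Glial markers (5 of 6) summed to 593 to 981 at E8.5, 2159 to 5641 at E13.5 and 269.7 to 1093 at P90, and endothelial markers (6 of 8) to 182 to 636 at E8.5, 748 to 1689 at E13.5 and 614 to 3833 at P90. Macrophage and immune markers (5 of 10) summed to 1261 to 1848 at E8.5, 2017 to 2509 at E13.5 and 2619 to 4222 at P90, and 4 of 8 tested rose at P90 against each earlier stage. Of 8 adrenal cortex markers, 4 were empty on all P90 arrays, and of the 4 tested, 2 rose at P90 against E8.5 and 1 against E13.5. The part of these cells in the results was not tested.

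RNA quality differed between arrays of a stage. The control probe sets for the 3′ and 5′ ends of Actb, whose log2 difference grows as RNA is shortened, differed by 4.82, 2.05 and 2.39 at E8.5, 0.85, 6.996 and 2.87 at E13.5, and 1.36, 4.09 and 3.51 at P90 on replicates 1, 2 and 3. E8.5 replicate 1, the highest of its stage, had the lowest signal of its stage in 11 of 16 of the probe sets described here, and E13.5 replicate 2 in 8 of 15. P90 replicate 2, also the highest of its stage, was lowest in 4 of 17, while P90 replicate 3 was lowest in 8 of 17. With these most affected arrays left out, 1 per stage and P90 replicate 2 among them (an alternative chosen after seeing the data), 7 probe sets were called at E13.5 against E8.5, 8 at P90 against E8.5 and 2 at P90 against E13.5. Both probe sets of Uhrf1 and of Dnmt3b and Dnmt3a 1460324_at kept their calls at E13.5 there, and Dnmt1 did not, with an adjusted p of 0.0681 for 1435122_x_at. Without those arrays 2 Tet1 probe sets passed at P90 against E8.5, 1429448_s_at (-2.68, adjusted p = 0.0471) and 1455425_at (-2.44, adjusted p = 0.0132). Tet1 1455425_at also passed at P90 against E13.5 (-2.04, adjusted p = 0.0413). Dnmt1 1422946_a_at (-2.04) and 1447877_x_at (-2.11), each with 1 value left in a stage, and Dnmt3a 1423064_at (-1.94) lost their P90 calls against E8.5. Dnmt1 1435122_x_at kept its call there.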

How the data were processed

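RNA of laser-captured cells from mice was measured on 9 Affymetrix arrays, 3 at each of E8.5, E13.5 and P90. The authors deposited 1 linear intensity per probe set and array. The submitters' processing notes name MAS5, GCOS, RMA and GCRMA with no role, and which of them made the deposited intensities, or how arrays were scaled, is not given in the sources used here. Of 405909 values, 8048 (1.98%) were empty. Of 45101 probe sets, 64 were controls, and the platform annotation gave 34945 probe sets 1 gene symbol, 932 several and 9160 none. Those with 1 symbol were used.

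Values were taken as log2(signal + 16) with no further scaling. A probe set was tested if at least 3 of its 9 values exceeded a signal of 26.1, the 40th percentile of the table, and if each stage had at least 2 values (24013 probe sets, 13748 genes). One limma fit (lmFit, eBayes with a variance trend; limma 3.58.1, R 4.3.3) had a mean per stage and 6 residual degrees of freedom, with two-sided tests and Benjamini-Hochberg adjustment over all tested probe sets. The fit uses the values present, so a probe set with an empty value rests on fewer arrays. The code was tested on simulated data. The number of arrays limits the precision.

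Every probe set of the 8 genes is named. Of each other list, the called genes with the largest change are named, up to 4 per comparison, and lists follow the brightest probe set of a gene. The genes, lists and tests were chosen with earlier results of these data known. Labels share replicate numbers between stages, but deviations of same-numbered arrays correlated at -0.36 to 0.42, so numbers were not used to pair. Alternatives were quantile normalization, median centring, pseudocounts of 1 and 64, no filter or one at the 60th percentile, no variance trend, 1 probe set per gene, no _x_at or _s_at probe sets, no empty values, the replicate number as a block, the Actb difference as a covariate, only the stages compared, and each array left out. Listed genes with no probe set of 1 symbol were not analysed here.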

Additional observations from a re-analysis of the deposited data

How the results depend on the processing

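Of the 54 changes of the 18 tested probe sets, 21 were called, and 11 of these kept their call under every alternative run. No called change turned its direction under any alternative run. Counts moved by over 1.5 times in the following cases. At E13.5 against E8.5, where 11 were called, 4 were called with 1 probe set per gene (7 tested), 6 among the 12 with no empty value, 7 without the arrays of the largest Actb difference, and 6 to 11 with 1 array left out (6 without E8.5 replicate 2, 7 without E8.5 replicate 3 or E13.5 replicate 3). At P90 against E13.5, where 1 was called, 2 were called after quantile normalization (Dnmt3b 1449052_a_at was added), 2 without the arrays of the largest Actb difference, 1 to 2 with 1 array left out (2 without E13.5 replicate 2), and limma called 0 among those with no empty value (2 at an unadjusted p under 0.05), since the Uhrf1 probe set is not among them. At P90 against E8.5, where 9 were called, 4 were called with 1 probe set per gene and 6 to 10 with 1 array left out. The F-test called 11, and 4 with 1 probe set per gene, 6 with no empty value, 7 without the arrays of the largest Actb difference and 7 to 12 with 1 array left out (7 without E8.5 replicate 2). With fewer probe sets or arrays, lower counts follow in part from the construction. With the replicate block the counts were 9, 1 and 9 for the 3 comparisons and 10 for the F-test, the E13.5 calls of Dnmt1 1422946_a_at and Dnmt3a 1423064_at being those lost, and 4 of 9 arrays correlated best with an array of their own number, so the block is no test of a shared source. With the Actb difference as a covariate, P90 against E8.5 gave 12, Dnmt3a 1423063_at, Tet1 1455425_at and Tet2 1438781_at being added. Centring arrays on their median moved the median change of all probe sets at P90 against E8.5 to -0.15 and the share of calls that were higher to 36.5%, against 46% as reported. The 14 changes that turned sign were all uncalled. With 1 array left out, their log2 changes ranged at E13.5 against E8.5 from -0.35 to 0.71 (Dnmt3a 1423066_at), -1.27 to 0.66 (Tet1 1429448_s_at), -0.94 to 0.070 (Tet1 1455425_at), -0.46 to 0.33 (Tet1 1419896_at) and -0.19 to 0.64 (Tet3). For P90 against E13.5 they ranged from -0.87 to 0.24 (Dnmt3a 1423064_at), -0.75 to 0.29 (Dnmt3a 1423066_at), -0.11 to 0.44 (Tet1 1419896_at), -0.34 to 0.50 (Tet2 1438781_at), -0.48 to 0.27 (Tet2 1455300_at) and -0.29 to 0.23 (Tet3). For P90 against E8.5 they ranged from -0.56 to 0.35 (Dnmt3a 1423066_at), -0.33 to 0.46 (Tet1 1419896_at) and -0.24 to 0.58 (Tet3). Quantile normalization turned Tet1 1429448_s_at at E13.5 to -0.019, Tet2 1455300_at at P90 against E13.5 to 0.049, and Dnmt3a 1423066_at and Tet1 1419896_at at P90 against E8.5 to -0.11 and -0.021. Median centring turned Tet1 1429448_s_at at E13.5 to -0.086, and Dnmt3a 1423066_at and Tet1 1419896_at at P90 against E8.5 to -0.14 and -0.088. A pseudocount of 64 turned Tet1 1429448_s_at at E13.5 to -0.16 and Dnmt3a 1423066_at at P90 against E8.5 to -0.0023. The Actb covariate turned Dnmt3a 1423066_at at P90 against E8.5 to -0.039, and the replicate block turned Tet2 1455300_at at P90 against E13.5 to 0.0054. Without the arrays of the largest Actb difference, Tet1 1429448_s_at at E13.5 was -0.93 and Tet3 -0.48 against E8.5. For P90 against E13.5, Dnmt3a 1423064_at was 0.17, Tet2 1455300_at 0.037 and Tet3 0.11, and at P90 against E8.5 Dnmt3a 1423066_at was -0.27, Tet1 1419896_at -0.17 and Tet3 -0.36. The cause was not tested for these. Where leaving out an array left 1 value in a stage, that value was assumed to vary like the others. Signals near the filter limit Tet3, Dnmt3l and the dimmer Uhrf1 and Tet1 probe sets.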

Other observations

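Of 11 E2F factors and pocket proteins, 0 rose and 3 fell at E13.5 against E8.5, and 0 rose and 4 fell at P90 against E8.5. E2f7 (-4.98, adjusted p = 8.66e-06) and E2f8 (-3.90, adjusted p = 1.8e-05) fell at P90 against E8.5, and both also fell at P90 against E13.5 (-2.71 and -1.93). These are repressor E2Fs that are themselves expressed in S phase. The pocket protein gene Rbl1 (-1.47) and E2f3 (-2.34) were lower at P90 too. The median change over the 11 was -0.47 at E13.5 and -0.69 at P90, against medians over all genes of 0.02 and 0.01.

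Of 10 annotated pluripotency and early embryo factors, 3 were tested. Sall4 (-4.32, adjusted p = 2.17e-05) and Lin28a (-2.61, adjusted p = 0.000117) fell at E13.5 against E8.5, with changes at P90 against E13.5 of -0.04 and -0.00. Mean signals at E8.5, E13.5 and P90 were 418, 5.69 and 4.93 for Sall4 and 106, 3.45 and 3.41 for Lin28a. Both genes were below the filter at the later stages and passed it through E8.5 alone. Their calls against E8.5 could therefore only be falls, and their changes between the later stages do not show steady expression. Sox2, a factor of stem cells, neural progenitors and glia, fell at E13.5 against E8.5 (-1.69, adjusted p = 0.0425) and at P90 against E13.5 (-4.28, adjusted p = 0.000565).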
